A study of Mus musculus with 23 samples.

Results

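Homeostatic microglia genes are the genes by which the resident macrophages of the healthy brain are recognised, and most of them fall when these cells are activated. The account below follows 10 genes, chosen by name, with earlier results of these data known: P2ry12, P2ry13, Tmem119, Cx3cr1, Siglech, Sall1, Gpr34, the receptor gene Csf1r, and the genes of its 2 ligands, Csf1 and Il34. All 10 were among the 32285 genes of the deposited count matrix. Each was followed across the cell types of the mouse brain and across cells sorted by how much labelled antibody they carried.

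Signalling through CSF1R, a receptor tyrosine kinase of the macrophage lineage, keeps microglia alive. Its ligands are colony stimulating factor 1, encoded by Csf1 and made by many cell types, and interleukin 34, encoded by Il34 and best known in the brain as a product of neurons. P2RY12 and P2RY13 are receptors for extracellular ADP that steer microglial processes towards damage. CX3CR1 is the receptor for the neuronal chemokine fractalkine, GPR34 is a receptor for lysophosphatidylserine, SIGLECH is a sialic acid-binding surface lectin, TMEM119 is a membrane protein used as a microglial marker, and SALL1 is a transcription factor that maintains microglial identity.

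The study dosed 12-week-old mice intravenously with 45 mg/kg of an antibody carrying the red fluorophore AF647 and collected perfused brains, without olfactory bulbs, cerebellum, pons and medulla, 24 h later. The age of 12 weeks is from the study's design text, while the labels of every sample give 3.3 months, and the 2 do not match exactly. ATV-TfR, an antibody transport vehicle whose Fc part binds the human transferrin receptor (label DNP02_hIgG1_LALAPG_ATV35.23.2), was given to TfR mu/hu KI mice. ATV-CD98hc, the equivalent vehicle for the human CD98 heavy chain (label DNP02 LALAPG LLB2-10-8 monovalent), was given to CD98hc mu/hu KI mice. A control IgG with no transport arm (label DNP02_hIgG1_LALAPG) was given to C57BL/6J mice, the background of both knock-in lines. All 3 antibodies carry the LALAPG changes, which weaken binding to Fc gamma receptors. Treatment and genotype coincide, so their parts in any difference between the 3 groups cannot be told apart.

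Actinomycin D and anisomycin, which block transcription and translation, were present while the tissue was dissociated, and the live cells of 1 male and 1 female were pooled, giving 2 pools per treatment. Each pool was sorted into AF647-negative, low, medium and high bins, with gates set as tertiles of the positive cells of the ATV-TfR group and applied to all groups. The bins of 1 pool therefore hold cells of the same 2 animals. The control IgG negative bin is represented by pool 2 alone, so 23 libraries were analysed. A bin is a range of antibody signal on the cell, and the antibody can sit in the cell or on material attached to it.

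The 23 libraries held 265025 barcodes and 1129743851 unique molecular identifiers (UMIs), and 218732 cells remained after quality filters and removal of predicted doublets. Cells kept per library ranged from 524 in a control IgG high bin to 17185, with medians of 2189 to 4922 UMIs per cell. No pair of libraries shared more than 0.954% of their barcodes. Clusters were built without the 10 genes and were named from marker lists that do not contain them, so the level of a member in a class is not fixed by the naming. Microglia-like cells, which detected all 12 of their markers, numbered 8461 or 3.87% of the cells. Another 29135 cells (13.3%) were in clusters left unnamed. Some of these clusters passed a list but had more markers of another list among their leading genes. Among them were a cluster of 10051 cells with 11 of the 12 endothelial markers and another of 7426 cells with 11 of the 12 astrocyte markers. Unnamed cells count towards no class. Levels are given in CPM, the UMIs of a gene per 1000000 UMIs of the class. A 3′ UMI count is not scaled to transcript length, so no order is read between genes.

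In these brains 8 of the 10 genes were highest in microglia-like cells, and the pools of microglia-like cells did not overlap those of the next class for any of the 8. Csf1r reached 2467 ± 102 CPM (SD, n = 6 pools) in microglia-like cells and 1198 ± 59.6 in border macrophage-like cells, the macrophages of meninges and perivascular spaces. Monocyte or dendritic cell-like cells followed at 217 ± 66.8. The receptor gene thus had the smallest step from the first class to the second, 2.06-fold, among these 8 genes. Cx3cr1 was next, with 3158 ± 690 CPM in microglia-like, 882 ± 79.3 in border macrophage-like and 143 ± 31.8 in monocyte or dendritic cell-like cells, and none of these 3 ranges of pools overlapped. Both genes are shared by the mononuclear phagocyte lineage.

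**Figure D1:**
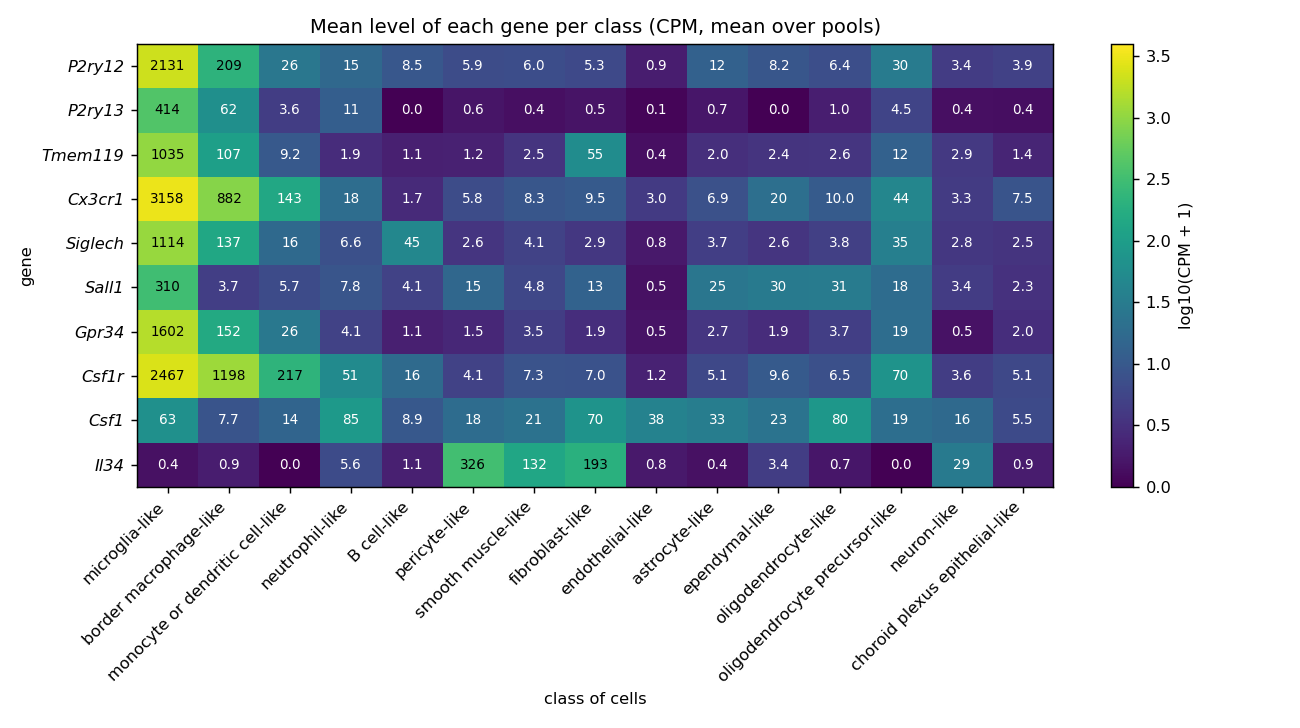
Mean level of each of the 10 genes (rows) in each of 15 classes of cells (columns), in CPM averaged over pools with at least 20 cells of the class; colour is log10(CPM + 1) and the printed figure is the mean. The first 8 rows are brightest in the microglia-like column, while Csf1 is spread over many classes and Il34 is brightest in pericyte-like, fibroblast-like and smooth muscle-like cells.

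The other members separated microglia-like from border macrophage-like cells more widely. P2ry12 was at 2131 ± 502 CPM (SD, n = 6 pools) against 209 ± 34.5, a 10.2-fold step, and Gpr34 at 1602 ± 342 against 152 ± 18.6, a 10.5-fold step. Tmem119 stood at 1035 ± 229 CPM against 107 ± 33.2, and Siglech at 1115 ± 268 against 137 ± 39.7. P2ry13 was at 414 ± 139 CPM in microglia-like and 61.6 ± 8.42 in border macrophage-like cells. The lowest pool of microglia-like cells for these genes, Cx3cr1 and Sall1 was control IgG pool 1, whose cells all came from positive bins, and it was at 1129 CPM for P2ry12 where the other pools were at 2154 to 2463. The 12 microglial markers that named the classes summed to 29362 to 48526 CPM in the microglia-like cells of single libraries and still to 11103 to 24798 CPM in border macrophage-like cells, and the part of microglial RNA in the levels of border macrophage-like cells was not tested. The 2 classes share genes of that list, among them the complement genes C1qa, C1qb and C1qc.

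In the non-myeloid classes most of these genes were low, and free RNA in droplet data gives every class a low level of abundant genes in a fixed proportion. Each member's UMIs in a class were therefore divided by the number that the microglial genes C1qa, C1qb, C1qc, Trem2 and Fcrls would give in the same libraries if all kept the proportions they have in microglia-like cells. In astrocyte-like cells this quotient had a median over pools of 1.24 for P2ry13, 1.35 for Gpr34, 1.40 for Tmem119, 1.61 for Csf1r, 1.75 for Cx3cr1 and 2.43 for Siglech. It was 5.88 for P2ry12 and 72.7 for Sall1 in the same cells.

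Sall1 (ENSMUSG00000031665), on chromosome 8 at 89027235 to 89044162 (GRCm38, minus strand), was also expressed well outside the macrophages. It reached 310 ± 62.9 CPM (SD, n = 6 pools) in microglia-like cells, then 30.7 ± 4.09 in oligodendrocyte-like, 29.8 ± 3.85 in ependymal-like and 24.7 ± 1.39 in astrocyte-like cells, whose ranges over pools overlapped. In border macrophage-like cells, by contrast, a Sall1 UMI was found in 0.510% of 2940 cells, although P2ry12 and Csf1r were present there. Because astrocyte-like cells were 78926 of the cells kept, they held 35.2% of all Sall1 UMIs, compared with 43.3% in microglia-like cells. The quotient against the 5 microglial genes was 59.0 in oligodendrocyte-like and 74.8 in ependymal-like cells.

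Tmem119 (ENSMUSG00000054675), on chromosome 5 at 113793729 to 113800516 (minus strand), was also found in fibroblast-like cells. Fibroblast-like cells held 54.6 ± 7.17 CPM (SD, n = 6 pools), and 24.5% of 2417 fibroblast-like cells had a Tmem119 UMI, while 0.724% of 78908 astrocyte-like cells did. After each cell was thinned to 1000 UMIs the median shares over pools were 5.41% and 0.156%. The quotient against the 5 microglial genes was 45.2 in fibroblast-like cells, compared with 1.16 in endothelial-like cells. Outside the brain Tmem119 is known from osteoblasts, which are connective tissue cells.

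Most microglia-like cells carried a UMI of each homeostatic gene. In microglia-like cells a UMI was found in 99.5% of cells for Csf1r, 99.2% for Cx3cr1, 97.7% for P2ry12, 96.6% for Gpr34, 94.2% for Siglech, 92.6% for Tmem119, 75.4% for P2ry13 and 61.0% for Sall1. The ligand gene Csf1 was found in 5.31% of microglia-like cells and Il34 in 0.165%. Endothelial-like cells, which should lack the receptor, had a Csf1r UMI in 0.457% of 74190 cells and a Cx3cr1 UMI in 1.07%, as 1 measure of background. Mean Csf1r was 1.24 CPM there and 5.06 in astrocyte-like cells, so this share is not that of every class. It does not cover the ligand genes.

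The genes whose pattern over classes was most like each member's were taken by Pearson's r of log2(CPM + 1) over 82 combinations of class and pool from 15 classes; the classes of 1 pool share animals and libraries, and 15464 genes were compared. P2ry12, Cx3cr1 and Gpr34 all had Fcrls, an Fc receptor-like microglial gene, among the top 3, with r of 0.92, 0.95 and 0.93. Tmem119 was closest to Olfml3 (r = 0.91) and Siglech to C1qb (r = 0.90), while P2ry13 was closest to 2 predicted genes, Gm38843 and Gm47754, followed by C1qc (r = 0.91). Csf1r followed Cd300c2 and Adgre1, the latter encoding the macrophage antigen F4/80, both at r = 0.94. Sall1 had no close companion, since its best match was the predicted gene Gm35188 at r = 0.74. Il34 was most like Gpc3 (r = 0.93), followed by Npy1r and Tbx2, and Csf1 again had no close companion (Abhd5, r = 0.71).

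The 2 ligand genes had largely different sources. Il34 (ENSMUSG00000031750) lies on chromosome 8 at 110741829 to 110805924 and Csf1 (ENSMUSG00000014599) on chromosome 3 at 107741048 to 107760469, both on the minus strand of GRCm38. Il34 was at 326 ± 85.1 CPM (SD, n = 6 pools) in pericyte-like cells, the contractile mural cells of capillaries, at 193 ± 95.0 in fibroblast-like cells and at 132 ± 20.5 in smooth muscle-like cells, and neighbours in this order overlapped over pools. These means mix bins that each class fills differently: in the ATV negative bins alone, pericyte-like cells were at 541 to 596 and fibroblast-like cells at 465 to 587 CPM. Neuron-like cells came next at 29.1 ± 8.89 CPM (n = 4 pools), below every smooth muscle-like pool. Only 429 neuron-like cells were recovered, so the neuronal contribution in intact tissue was not measured by these suspensions. Of all Il34 UMIs in the cells kept, 64.5% lay in pericyte-like, 17.9% in fibroblast-like and 11.5% in smooth muscle-like cells. A UMI of Il34 was found in 69.4% of 6074 pericyte-like cells against 0.239% of endothelial-like cells, and after thinning to 1000 UMIs the median shares were 33.5% and 0.0670%.

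Csf1 was spread over unrelated classes. Neutrophil-like cells were at 85.2 ± 27.5 CPM (SD, n = 5 pools), oligodendrocyte-like cells at 79.7 ± 7.96 (n = 5), fibroblast-like cells at 69.8 ± 17.7, microglia-like cells at 63.3 ± 88.8 and endothelial-like cells at 38.2 ± 16.4 (n = 6 each), and astrocyte-like cells at 32.9 ± 1.29 (n = 5). Each class in this order overlapped the next over pools. The microglia-like mean rested on 1 pool: control IgG pool 1 was at 244 CPM with 24 UMIs, and the other 5 pools were at 19.1 to 35.6 CPM. By number of cells, astrocyte-like cells held 38.0% of Csf1 UMIs, endothelial-like cells 29.8% and oligodendrocyte-like cells 12.0%. Unnamed clusters with most endothelial or astrocyte markers were not counted in these classes. In the negative bins alone, which held few endothelial-like cells in the ATV groups, oligodendrocyte-like cells held 45.3% and astrocyte-like cells 30.1%. A Csf1 UMI was present in 33.0% of 7285 oligodendrocyte-like cells and in 1.73% of border macrophage-like cells.

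**Figure D2:**
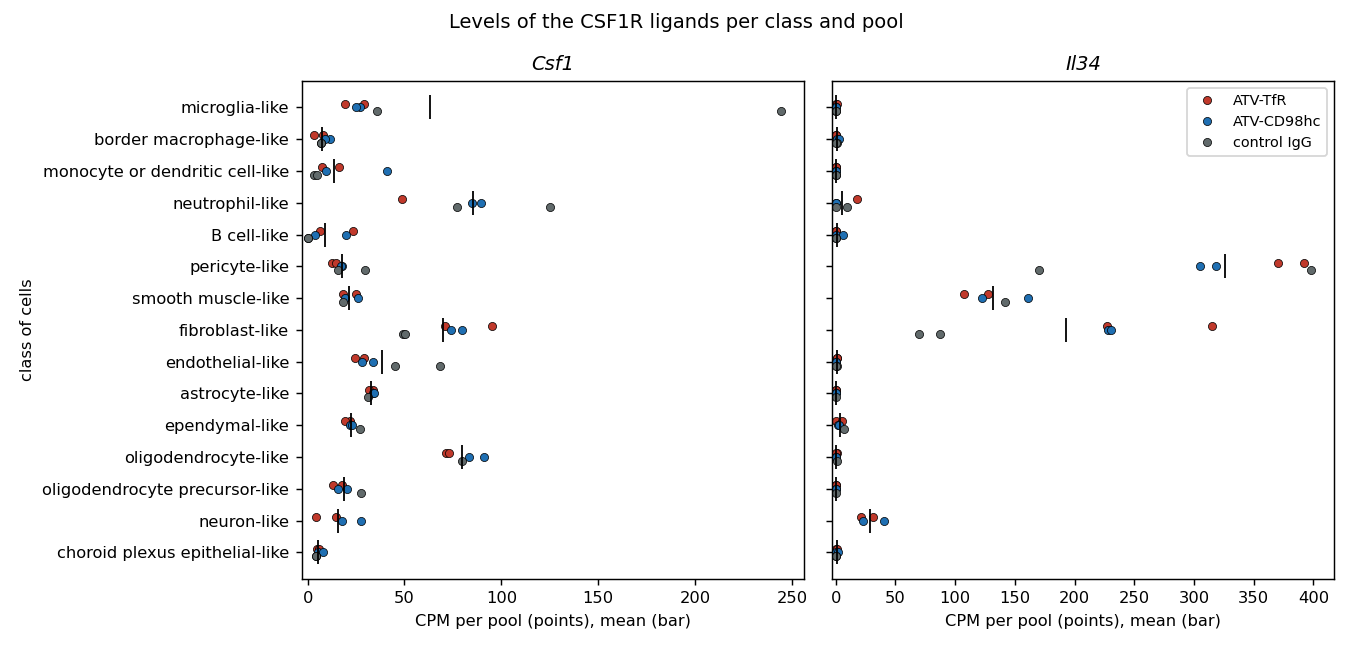
Levels of the 2 ligand genes in CPM (horizontal axes, with separate scales) in each class of cells (rows). Points are pools coloured by treatment and the bars are means over pools; the single high Csf1 point in the microglia-like row is control IgG pool 1 at 244 CPM, and the Il34 points from 69.8 CPM upwards are in pericyte-like, smooth muscle-like and fibroblast-like cells.

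Microglia-like cells were spread unevenly over the antibody bins in the 3 groups. ATV-TfR negative bins held 1912 and 1219 microglia-like cells, the low bins 293 and 279, the medium bins 37 and 34, and the high bins fewer than the 20 cells needed for a level. ATV-CD98hc negative bins held 530 and 215, low bins 1414 and 1283, medium bins 158 and 78, and high bins 58 and 28. The control IgG negative bin held 848 and its low bins 23 and 22. The levels from the bins with fewest cells are therefore the least precise.

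In the negative bins, no member differed between the microglia-like cells of the 3 groups by the test. P2ry12 was at 2592 and 2453 CPM in the ATV-TfR pools, at 2525 and 2576 in the ATV-CD98hc pools and at 2370 in the control IgG pool. Cx3cr1 was at 3220 and 3866, at 3748 and 3117, and at 3828 CPM in the same order. Csf1r was at 2521 and 2752, at 2413 and 2623, and at 2374 CPM. The control IgG arm is 1 library with no replicate, and is assumed to vary like the other groups in the joint fit. With edgeR's quasi-likelihood test and Benjamini-Hochberg adjustment, 0 of the 9 members tested differed between ATV-TfR and ATV-CD98hc (0.0174% of 11513 genes did), 0 between ATV-TfR and control IgG (0.0434%), and 0 between ATV-CD98hc and control IgG (0.0261%). DESeq2 also called 0 in each of the 3 contrasts. At an unadjusted p under 0.05 the counts were 0, 1 and 0, the 1 being Csf1, which was lower in ATV-TfR than in control IgG by 1.21 ± 0.36 on the log2 scale (adjusted p = 0.625). Il34 was too low in microglia-like cells to be tested.

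Along the bins of the ATV-CD98hc group, P2ry12 fell in microglia-like cells. It was at 2525 and 2576 CPM in the negative bins, 2152 and 2471 in the low, 1687 and 2006 in the medium and 1193 and 824 in the high bins. Both high bins and both medium bins lay below both low bins, and the high and medium bins did not overlap each other. The slope was −0.40 ± 0.09 (SE) in log2 CPM per bin step (adjusted p = 0.00606, edgeR quasi-likelihood test with Benjamini-Hochberg adjustment). P2ry13, the neighbouring ADP receptor gene, fell from 468 and 500 CPM in the negative bins to 313 and 384 in the medium and 261 and 242 in the high bins, with a slope of −0.29 ± 0.08 (adjusted p = 0.0310, edgeR). Low bins taken alone against negative bins gave no fall of P2ry13.

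Gpr34 and Sall1 were the other members that fell. Gpr34 was at 1656 and 1918 CPM in the negative, 1579 and 1941 in the low, 1113 and 1504 in the medium and 969 and 1091 in the high bins, with a slope of −0.26 ± 0.07 (adjusted p = 0.0340, edgeR). Sall1 was at 406 and 277 CPM in the negative, 298 and 319 in the low, 296 and 284 in the medium and 187 and 113 in the high bins, with a slope of −0.27 ± 0.08 (adjusted p = 0.0385, edgeR). The high bins were below every other bin for both genes. In all, 4 of the 9 members tested passed the threshold downwards, beside 5.4% of the 11513 genes tested in either direction and 0.938% downwards.

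Of the other members tested none passed, and all but Csf1 had negative slopes. Tmem119 was at 996 and 1250 CPM in the negative and 628 and 630 in the high bins, with a slope of −0.26 ± 0.08 (adjusted p = 0.0516), and with the pool as a block it passed (−0.25, adjusted p = 0.0203), which brought the count to 5. Siglech, Cx3cr1 and Csf1r had slopes of −0.14 ± 0.07, −0.11 ± 0.07 and −0.08 ± 0.06 (adjusted p = 0.325, 0.441 and 0.587, edgeR). Csf1r went from 2413 and 2623 CPM in the negative to 2098 and 2012 in the high bins. Csf1 had a positive slope of 0.52 ± 0.23 (adjusted p = 0.260).

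**Figure D3:**
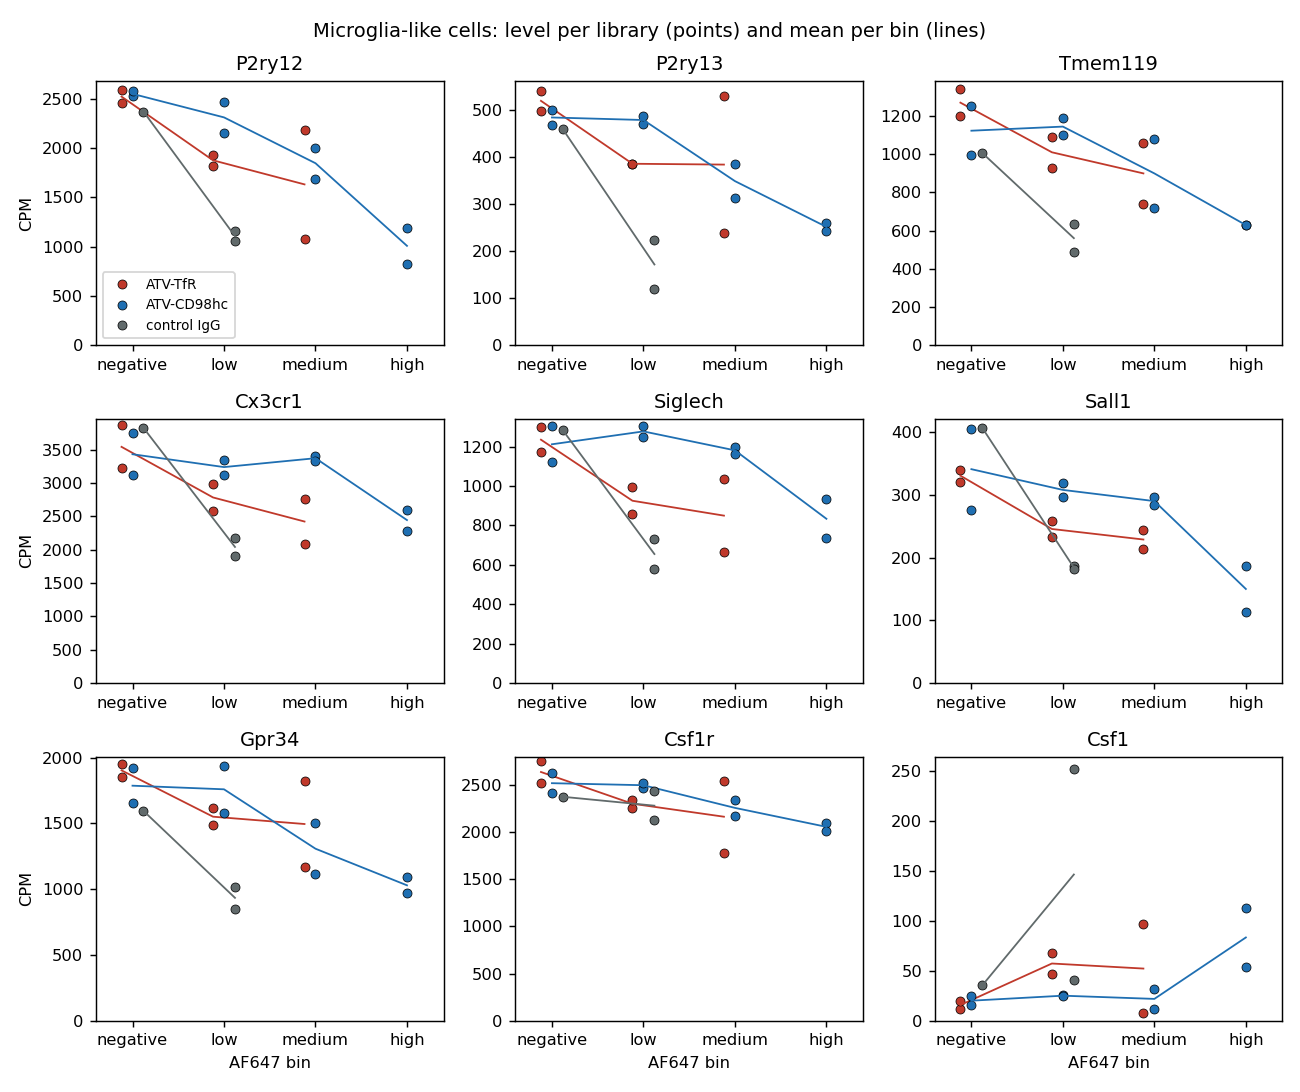
Level in microglia-like cells (vertical axes, CPM, each from 0) of the 9 members tested there, against the AF647 bin (horizontal axes). Points are libraries with at least 20 microglia-like cells, coloured by treatment, and lines join the means of each bin; in the ATV-CD98hc group P2ry12 goes from 2525 and 2576 CPM in the negative to 1193 and 824 in the high bins.

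The bins also differed in transcripts of other cells. The summed level of 12 endothelial markers in microglia-like cells of the ATV-CD98hc group was 46 CPM in both negative bins, 84 and 85 in the low, 1728 and 2057 in the medium and 2907 and 1761 in the high bins, and all 12 markers were detected from the low bins on. The 12 astrocyte markers summed to 539 and 623 CPM in the negative, 945 and 1560 in the low and 121 to 303 in the medium and high bins. When cells with 3 or more UMIs of the endothelial or the astrocyte list were left out, a choice made after the data were seen, 2 members were called and P2ry12 had a slope of −0.37 (adjusted p = 0.00509, edgeR). How many cells each ATV-CD98hc bin kept in this run is not given, so the range of bins behind this slope may be shorter. The run therefore cannot decide on a change over the full range of bins. When the planned set of cells with 3 or more UMIs of another type's markers was left out, 1 member was called, with P2ry12 at −0.38 (adjusted p = 0.0245). The share of all genes called in these 2 runs is not given beside the counts. The call rested on both ATV-CD98hc pools: without pool 1 the P2ry12 slope was −0.47 (adjusted p = 0.171) and without pool 2 it was −0.33 (adjusted p = 0.141), and no member was called. Low bins taken alone against negative bins gave a P2ry12 difference of −0.11 (adjusted p = 0.917) and high bins alone −1.24 (adjusted p = 0.00278).

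P2ry12 (ENSMUSG00000036353) and P2ry13 (ENSMUSG00000036362) lie side by side on the minus strand of chromosome 3 in GRCm38, at 59216272 to 59262871 and 59207892 to 59210882, and fell together in the ATV-CD98hc group, so the 250 bases before the start of each are shown, from RefSeq (GRCm38.p6). Capitals mark AGGAAG, a core of the kind bound by ETS family factors such as PU.1, the macrophage factor encoded by Spi1. The windows are chr3:59262986-59263235 and chr3:59210883-59211132, both on the minus strand.

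P2ry12: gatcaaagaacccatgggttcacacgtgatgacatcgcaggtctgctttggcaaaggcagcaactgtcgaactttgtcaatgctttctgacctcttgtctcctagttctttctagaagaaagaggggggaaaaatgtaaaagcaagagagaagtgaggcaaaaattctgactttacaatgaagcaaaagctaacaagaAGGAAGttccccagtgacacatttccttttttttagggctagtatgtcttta
P2ry13: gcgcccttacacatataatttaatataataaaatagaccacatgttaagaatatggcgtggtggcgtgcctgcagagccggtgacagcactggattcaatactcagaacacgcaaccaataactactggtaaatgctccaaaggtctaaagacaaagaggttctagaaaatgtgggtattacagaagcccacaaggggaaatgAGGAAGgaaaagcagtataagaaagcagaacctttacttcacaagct

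The match starts 52 bases before the RefSeq start in P2ry12 and 47 bases before it in P2ry13. The RefSeq start of P2ry12 lies upstream of the gene span given above, so its match is further from that span. AGGAAG or its other strand CTTCCT occurred in 29.5% of all 32851 such windows, so a match in a window is common. The promoter table held 6 of the 10 genes, and of these Sall1 also had a match in 1 of its 3 windows, and the windows of Cx3cr1, Siglech and Csf1 had none. Sequences for Tmem119, Gpr34 and Il34 are not shown, and no window of Csf1r was used.

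In the ATV-TfR group the ligand gene Csf1 rose in microglia-like cells while no homeostatic member passed the test. Csf1 was at 12.0 and 19.5 CPM in the negative bins, 46.4 and 68.1 in the low and 96.5 and 7.9 in the medium bins. Both low bins were above both negative bins, and the medium bins lay on either side of them, with 19 UMIs in 37 cells and 1 UMI in 34 cells. The slope over negative, low and medium was 1.24 ± 0.34 in log2 CPM per bin step (adjusted p = 0.0327, edgeR), and low against negative alone gave 2.00 (adjusted p = 0.000114). This was 1 of 9 members tested, beside 5.27% of the 11513 genes called in either direction and 4.76% upwards. DESeq2 gave a slope of 1.05 with an adjusted p of 0.117. Without ATV-TfR pool 1 the slope was 0.67 (adjusted p = 1.00) and without pool 2 it was 1.60 (adjusted p = 0.0742).

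Few cells carried these Csf1 UMIs. A UMI was found in 3.97% and 3.61% of microglia-like cells of the ATV-TfR negative bins and in 8.19% and 11.1% of those of the low bins. Single cells held 14 of 53 and 18 of 75 UMIs in the low bins, 10 of 19 in the medium bin of pool 1, and 4 of 89 and 19 of 76 in the negative bins. Astrocyte transcripts rose over the same bins: the 12 astrocyte markers summed to 374 and 528 CPM in the negative, 1517 and 1382 in the low and 4079 and 2723 in the medium bins. Without cells holding 3 or more UMIs of the astrocyte or endothelial list the Csf1 slope was 2.40 (adjusted p = 0.00451), from the negative and low bins alone, since 17 cells were left in each medium bin.

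The 7 homeostatic genes and Csf1r had negative slopes in the ATV-TfR group, from −0.12 to −0.31, and adjusted p values from 0.181 to 0.575. P2ry12 was at 2592 and 2453 CPM in the negative, 1935 and 1818 in the low and 1077 and 2187 in the medium bins, with a slope of −0.31 ± 0.13 (adjusted p = 0.202). The 2 medium bins of 37 and 34 cells stood apart. For all 8 genes the medium bin of pool 1 was below both low bins, and that of pool 2 lay within the range of the low and negative bins. The difference in slope between the ATV-TfR and ATV-CD98hc groups passed for 0 of 9 members (1.43% of genes), with DESeq2 also at 0 and with 0 at an unadjusted p under 0.05. The largest difference was that of Csf1, 0.72 ± 0.39 (adjusted p = 0.588).

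**Figure D4:**
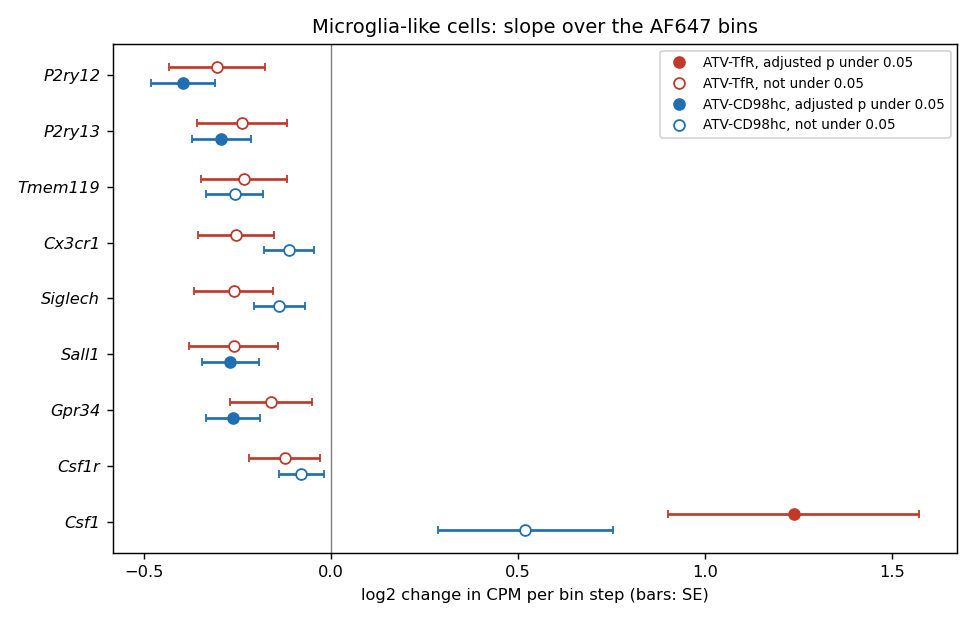
Slope of each member over the AF647 bins in microglia-like cells, in log2 CPM per bin step (horizontal axis), for ATV-TfR (red) and ATV-CD98hc (blue). Points are estimates, bars are 1 SE on either side and filled points have an adjusted p under 0.05: P2ry12, P2ry13, Sall1 and Gpr34 for ATV-CD98hc, and Csf1 for ATV-TfR.

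The control IgG group gave no trend, since only 3 of its libraries held 20 microglia-like cells, and its low bins were compared with its negative bin after the data were seen. The negative arm is 1 library, from pool 2, with no replicate of its own, and is assumed to vary like the other groups in the joint fit. P2ry12 was at 1161 and 1053 CPM in the low bins, from 23 and 22 cells, against 2370 in the negative bin, a difference of −1.04 ± 0.31 on the log2 scale (adjusted p = 0.0962, edgeR). P2ry13 fell by 1.35 ± 0.35, from 459 CPM to 120 and 223 (adjusted p = 0.0474), and was 1 of 9 members called, beside 1.17% of the genes in either direction and 0.261% downwards. The call was lost with RLE factors (−1.23, adjusted p = 0.0697), without cells holding markers of another type (−1.26, adjusted p = 0.0700) and without control IgG pool 1 (−1.10, adjusted p = 0.444). Cx3cr1, Siglech, Sall1, Gpr34 and Tmem119 were lower in both low bins than in the negative bin without passing. Csf1r was level, at 2432 and 2127 against 2374 CPM. The median of all genes tested in this contrast was −0.20, so about that much of each difference is shared by genes at large. Csf1 was at 252 and 40.5 CPM against 35.5, a difference of 2.06 ± 0.59 (adjusted p = 0.0830), and 6 of the 23 cells in pool 1 carried it, 1 of which held 12 of the 23 UMIs.

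Genes of the same pathways were counted from fixed lists. Among 21 other homeostatic genes, 3 fell in the ATV-CD98hc group, beside 0.938% of all genes downwards, namely the uroplakin gene Upk1b (−0.55 ± 0.14, adjusted p = 0.0174), the fructose transporter gene Slc2a5 (−0.38 ± 0.11, adjusted p = 0.0392) and the crystallin gene Crybb1 (−0.32 ± 0.09, adjusted p = 0.0306, edgeR). In the ATV-TfR group 0 of the 21 passed by edgeR, with 5 at an unadjusted p under 0.05 and 3 lower by DESeq2, and DESeq2 called 8 lower in the ATV-CD98hc group. The share of all genes that DESeq2 called is not given, so its counts here and below have no background beside them. The median slope of the list was −0.16 in the ATV-CD98hc and −0.13 in the ATV-TfR group, where the median of all genes was −0.02 in both. The complement gene C1qa, abundant in microglia, had a slope of 0.10 ± 0.13 in the ATV-TfR group and did not pass. For the 9 members tested the median slope was −0.26 in ATV-CD98hc and −0.24 in ATV-TfR.

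Downstream of the receptor, the 15 genes of CSF1R signalling and macrophage transcription factors had a median slope of −0.19 in the ATV-TfR and −0.02 in the ATV-CD98hc group. In the ATV-TfR group 1 of 15 passed, the kinase gene Syk, which fell by 0.39 ± 0.11 per bin (adjusted p = 0.0457, edgeR; 0.512% of all genes downwards), with 2 lower by DESeq2, and in the ATV-CD98hc group 0 of 15 did, with 2 at an unadjusted p under 0.05 and 0 by DESeq2. Spi1 had slopes of −0.08 ± 0.09 and −0.03 ± 0.06. Of 15 genes of the TGF-beta pathway, which supports the homeostatic programme, Itgb8 rose in the ATV-TfR group by 1.97 ± 0.49 (adjusted p = 0.0207) and Nrros, which anchors latent TGF-beta on microglia, fell in the ATV-CD98hc group by 0.24 ± 0.06 (adjusted p = 0.0234, edgeR). Each was the 1 call among the 15 genes, beside 5.27% and 5.4% of all genes in either direction, and DESeq2 called 2 higher in the ATV-TfR group and 1 higher and 3 lower in the ATV-CD98hc group. Astrocyte transcripts rose over the ATV-TfR bins, as given above, and their part in the rise of Itgb8 was not tested. Of the 6 measured genes of purine sensing and hydrolysis 0 passed in either group by edgeR, 2 and 3 were at an unadjusted p under 0.05 in the ATV-TfR and ATV-CD98hc groups, and DESeq2 called 1 and 1. Among them Entpd1, the ectonucleotidase that degrades the ligands of P2RY12, had slopes of −0.34 ± 0.11 (adjusted p = 0.0957) and −0.20 ± 0.07 (adjusted p = 0.146).

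Some genes of activated microglia rose over the bins in each ATV group. In the ATV-TfR group 9 of 18 rose, beside 4.76% of all genes upwards, with a list median of 1.45, and Spp1 (3.90 ± 0.70), Cst7 (1.92 ± 0.39), Apoe (1.82 ± 0.35) and Lpl (1.80 ± 0.47) had the steepest slopes. Spp1 was at 0.81 and 1.3 CPM in the negative, 149 and 19.1 in the low and 991 and 0 in the medium bins, so its medium bins lay at opposite ends. Apoe, a lipid carrier, was at 574 and 898 CPM in the negative, 2442 and 2915 in the low and 12701 and 4500 in the medium bins. In the ATV-CD98hc group 8 of 18 rose, beside 4.46% of all genes upwards, with a list median of 0.65, led by Lgals3 (1.99 ± 0.38), Axl (1.45 ± 0.23), Itgax (1.13 ± 0.27) and Lpl (1.12 ± 0.30). In the control IgG low bins, of 23 and 22 cells, 4 of 18 were higher than in the 1 negative library, which has no replicate, namely Apoe, Axl, Il1b and Tnf, beside 0.912% of all genes upwards, and Apoe was at 14996 and 12874 against 951 CPM. Without control IgG pool 1 that count was 1, and it was 8 or 9 without any 1 pool of the ATV groups. Without ATV-TfR pool 1 or pool 2 the first count was 0 and 2, and without ATV-CD98hc pool 1 or pool 2 the second count was 0 and 2. Astrocytes express Apoe, and the part of the astrocyte transcripts named above in its rise was not tested.

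Of the immediate early genes, which respond to tissue dissociation as well as to stimuli, 7 of 13 rose in the ATV-CD98hc group, beside the same 4.46% of all genes. Among them were Fos at 1.16 ± 0.23, Ier2 at 1.10 ± 0.20, Egr1 at 1.01 ± 0.21 and Dusp1 at 0.96 ± 0.23 per bin, while 0 of 13 passed in the ATV-TfR group (5 at an unadjusted p under 0.05, 1 by DESeq2) and 6 of 13 were higher in the control IgG low bins (0.912% of all genes upwards), a count that was 2 without control IgG pool 1 and 10 without ATV-CD98hc pool 2. The part of the dissociation response in the slopes of the members was not tested. Fos, Egr1 and Dusp1 were also among the leading genes of a cluster of endothelial-like cells. Endothelial transcripts rose over the same ATV-CD98hc bins, as given above, and their part in the rise of these genes was not tested. Among 5 measured genes of other binding partners, Ptprz1, which astrocytes and oligodendrocyte precursors express, rose in the ATV-TfR group (2.56 ± 0.47), beside 4.76% of all genes upwards. Cd200, which endothelial cells express, rose in the ATV-CD98hc group (1.53 ± 0.45, adjusted p = 0.0481, edgeR), beside 4.46% of all genes upwards. DESeq2 called 0 genes of this list higher and 2 lower in the ATV-CD98hc group, so the call of Cd200 was lost there.

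Border macrophage-like cells reached the 20 cells needed in every bin except the ATV-CD98hc negative bins, which held 17 and 8, and in them no member passed a test of trend. Of 7 members tested, 0 passed in the ATV-TfR group (4.3% of 6728 genes), 0 in the ATV-CD98hc group (2.73%) and 0 in the control IgG group (0.223%). DESeq2 called 0 in each, and at an unadjusted p under 0.05 the counts were 0, 0 and 1. Csf1r was between 840 and 1444 CPM in all 21 libraries with enough of these cells, and its slopes were 0.10 ± 0.07, 0.09 ± 0.10 and 0.01 ± 0.08. P2ry12 was between 120 and 340 CPM in the same libraries.

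Cx3cr1 was higher in the high than in the low bins of these cells. In the control IgG group it was at 691 CPM in the 1 negative bin with enough cells (22), 438 and 737 in the low, 715 and 924 in the medium and 1118 and 1341 in the high bins, and in the ATV-CD98hc group at 750 and 739, at 668 and 549, and at 1273 and 1238 CPM. In the ATV-TfR group the negative bins, at 973 and 1081 CPM, were as high as the high bins, at 943 and 1037, with 611 and 601 in the low bins between. High bins were above low bins in every pool, and this contrast was added after the data were seen. It was 1.03 ± 0.23 on the log2 scale for control IgG (adjusted p = 0.00845, edgeR), where 1 of 7 members passed beside 1.68% of 7656 genes in either direction and 0.457% upwards. It was 0.63 ± 0.25 for ATV-TfR (adjusted p = 0.169, 0 of 7 members, 5.69% of genes) and 0.66 ± 0.24 for ATV-CD98hc (adjusted p = 0.0850, 0 of 7, 8.16%), with 2 and 1 members at an unadjusted p under 0.05 and 0 by DESeq2 in both. Without control IgG pool 1 the first difference was 0.84 (adjusted p = 0.324). Astrocyte markers in these cells summed to 3226 to 5665 CPM in the low bins and 29 to 291 in the high bins of the 2 ATV groups, and to 8 to 12 CPM in the control IgG low and high bins. The part of these transcripts in the differences of Cx3cr1 was not tested.

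For Csf1, astrocyte-like cells changed little. In the ATV-TfR group it was at 30.9 and 27.9 CPM in the negative, 31.6 and 31.2 in the low, 35.5 and 33.6 in the medium and 38.3 and 29.5 in the high bins. The slope of 0.12 ± 0.04 passed (adjusted p = 0.0267, edgeR) and it did not pass without either ATV-TfR pool (adjusted p = 0.436 and 0.103). In all 7 of 10 members passed in astrocyte-like cells of this group, beside 19.4% of 15339 genes. The other 6 were Csf1r, Cx3cr1, Gpr34, P2ry13, Siglech and Tmem119, which fell there from a few CPM while the 12 microglial markers fell from 191 and 170 CPM in the negative to 89 to 120 CPM in the other bins. In the ATV-CD98hc group 0 of 10 passed (20.7% of genes), with 1 at an unadjusted p under 0.05 and 3 by DESeq2, and Csf1 had a slope of 0.01 ± 0.04.

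Csf1 did not pass a test of trend in oligodendrocyte-like cells. Levels were 72.5 and 73.8 CPM in the ATV-TfR negative bins and 49.5 and 74.1 in the medium bins, and 93.4 and 86.3 in the ATV-CD98hc negative bins and 81.7 and 63.6 in the medium bins. Neither slope passed (−0.10 ± 0.09, adjusted p = 0.543, and −0.19 ± 0.09, adjusted p = 0.299, edgeR). Of 9 members tested 1 passed in the ATV-TfR group, Siglech at a low level (7.93% of 12436 genes, 3.05% downwards), and 0 in the ATV-CD98hc group (8.36%), where 5 were at an unadjusted p under 0.05 and DESeq2 called 1.

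In endothelial-like cells Csf1 was at 19.6 to 36.9 CPM in the medium and high bins of the ATV-TfR and ATV-CD98hc groups. The control IgG bins were at 28.9 in the negative, 67.9 and 53.6 in the low and 103 and 121 in the medium bin, the last from 20 and 30 cells. No slope of Csf1 passed, at 0.08 ± 0.18 for ATV-TfR (adjusted p = 0.952) and 0.12 ± 0.11 for ATV-CD98hc (adjusted p = 0.837, edgeR). The ATV-TfR slopes in these cells cover the low to high bins only, since no ATV-TfR negative library held enough of them. By cluster the level was 69.3 ± 15.4 CPM (SD over pools) in the cluster led by venous genes and 80.5 ± 33.7 in one led by Nr4a1, Apold1 and Atf3. Of 8 members tested 1 passed in the ATV-TfR group, Sall1 (6.43% of 12620 genes, 5.69% downwards), and 7 in the ATV-CD98hc group (7.85%, and 6.97% downwards). Those 7 fell, and were homeostatic genes and Csf1r at 0 to 30.8 CPM. The ATV-CD98hc group had 1 negative library in the fit, of 20 cells, in which each of them was at 0 UMIs. Their falls therefore lay over the positive bins.

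Il34 fell over the bins in pericyte-like cells, in which its trend was added after the levels by class were seen. It was at 584 and 548 CPM in the ATV-TfR negative bins, 398 and 488 in the low, 394 and 352 in the medium and 256 and 270 in the high bins. In the ATV-CD98hc group it was at 596 and 541, 319 and 364, 254 and 276, and 230 and 249 CPM. In both groups the negative bins were above every other bin. The slopes were −0.32 ± 0.06 (adjusted p = 0.000585) and −0.38 ± 0.06 (adjusted p = 0.000248, edgeR). Of 7 members tested 7 passed in the ATV-TfR group (17.4% of 11701 genes), where Csf1 rose by 0.38 ± 0.13 (adjusted p = 0.0465) and the others fell, and 1 in the ATV-CD98hc group (17.6%, and 7.19% downwards). Other than Il34, the members that fell were at no more than 25.3 CPM in any ATV-TfR bin of these cells. The part of microglial RNA in these falls was not tested. Low against negative bins alone gave −0.46 for Csf1 (adjusted p = 0.959), and DESeq2 (0.37, adjusted p = 0.0520), the pool as a block (0.38, adjusted p = 0.0617) and leaving out ATV-TfR pool 1 (0.22, adjusted p = 0.713) each ended its call.

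Endothelial transcripts moved the other way in the same pericyte-like cells. The 12 endothelial markers summed to 419 to 745 CPM in the negative bins of the 2 ATV groups and to 14983 to 17946 CPM in the high bins, while the 8 pericyte markers went from 35296 to 45385 CPM down to 16274 to 21808 CPM. In cells with fewer than 3 UMIs of another type's markers the Il34 level over pools was 560 CPM, and the slopes were 0.015 (adjusted p = 1.00) and −0.024 (adjusted p = 1.00). Il34 was the 1 member that could be tested in these cells. In these cleaner cells no change of Il34 over the bins was detected. The cut takes out cells with endothelial transcripts, whose sum was highest in the high bins, and the cells left per bin are not given. It therefore cannot decide on a change over the full range of bins. Without ATV-TfR pool 1 or pool 2 the ATV-TfR slope was −0.33 and −0.34 (adjusted p = 0.0806 and 0.0741).

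**Figure D5:**
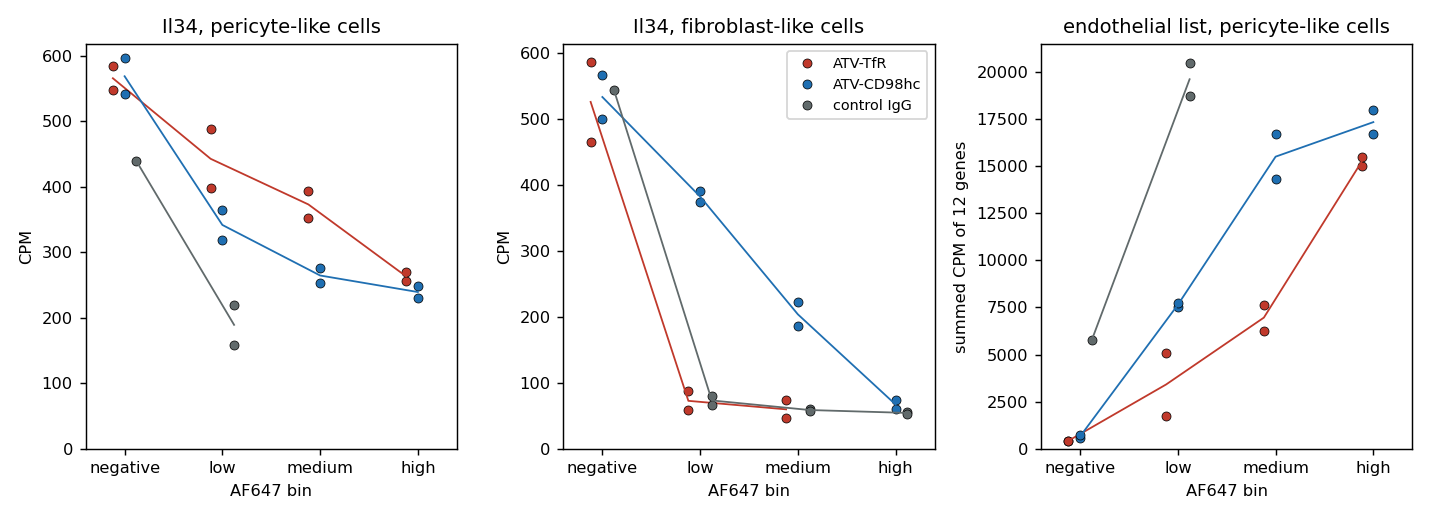
Il34 level (CPM, vertical axes from 0) in pericyte-like cells (left) and fibroblast-like cells (middle), and the summed level of the 12 endothelial markers in pericyte-like cells (right), against the AF647 bin. Points are libraries coloured by treatment and lines join bin means; as Il34 goes from 541 to 596 CPM in the negative to 230 to 270 CPM in the high bins of the ATV groups in pericyte-like cells, the endothelial sum goes from 419 to 745 CPM up to 14983 to 17946 CPM.

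Fibroblast-like cells showed a steeper course. Il34 was at 587 and 465 CPM in the ATV-TfR negative bins and at 58.1 and 87.3 in the low and 46.0 and 73.6 in the medium bins. In the ATV-CD98hc group it was at 567 and 499, 391 and 374, 185 and 222, and 73.7 and 60.5 CPM from negative to high. The control IgG bins were at 543 CPM in the negative and at 53.4 to 79.7 in the 6 positive ones. The slopes were −1.70 ± 0.29 (adjusted p = 0.00136, edgeR; 4 of 6 members called, 7.5% of 10777 genes, 4.64% downwards) and −0.97 ± 0.20 (adjusted p = 0.00684; 3 of 6, 10% of genes, 4.96% downwards). Without ATV-TfR pool 1 the first slope was −1.44 (adjusted p = 0.151), and without ATV-CD98hc pool 1 or 2 the second had adjusted p = 0.183 and 0.172.

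This course followed 2 clusters of fibroblast-like cells. A cluster led by Slc6a13, a transporter gene of meningeal and vascular fibroblasts, had Il34 at 495 ± 58.0 CPM (SD over pools), and the other cluster had 57.2 ± 5.35. The first made up 96.4% and 92.3% of fibroblast-like cells in the ATV-CD98hc negative bins, 84.6% and 82.0% in the low bins, 35.8% and 39.1% in the medium bins and 7.69% and 11.8% in the high bins. In the ATV-TfR low bins it made up 3.90% and 11.8%. Within that cluster Il34 was at 590 and 537 CPM in the ATV-CD98hc negative bins, at 478 and 485 in the low bins and at 478 and 553 in the medium bins. The fall of Il34 in fibroblast-like cells thus went with a change in which of the 2 clusters the bins held. Csf1 had slopes of −0.64 ± 0.19 (adjusted p = 0.0448) and −0.42 ± 0.14 (adjusted p = 0.0616) in the same cells, and Tmem119 had −0.12 ± 0.16 and −0.06 ± 0.12 without passing. Within the first cluster Csf1 was at 109 and 75.2 CPM in the ATV-CD98hc negative, 141 and 112 in the low and 132 and 135 in the medium bins. In the ATV-TfR group the first cluster was at 144 and 98.6 CPM in the negative bins. The other cluster was at 44.3 and 44.5 CPM in the ATV-TfR low bins. The part of the change of clusters in the Csf1 slopes was not tested.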

How the data were processed

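Droplet 3′ libraries were read with Cell Ranger 7.1.0 and mm10, per the file headers and the submitters' processing notes, and the deposited counts are raw UMI counts per gene and barcode. Barcodes had to reach 500 genes and 800 UMIs with no more than 10% of UMIs mitochondrial, and doublets predicted by Scrublet in scanpy 1.11.5 were removed (30983 of 249715), as a preset 0.8% per 1000 barcodes, so that libraries lost 0.38% to 16.5%. Leiden clusters (resolution 2) were built without the 10 genes among the variable genes and named from marker lists. UMIs were summed per class and library with at least 20 cells. Trends over the bins, coded 0 to 3, and contrasts were tested with edgeR 4.0.16 (quasi-likelihood, TMM, all groups in 1 fit, Benjamini-Hochberg over all genes tested, threshold 0.05), and DESeq2 1.42.0 was an alternative. On simulated counts for the ATV-CD98hc microglia-like trend (11513 genes), 56% of slopes of 0.5 and 79% of slopes of 1 were recovered. Each library was drawn on its own, without an effect shared by the bins of a pool. Every called member slope in that trend was smaller in size than 0.5, so recovery at those sizes was not measured. Same-numbered bins come from 1 pool, so numbers pair libraries by design; their deviations correlated at −0.04 to 0.25 over 9207 genes. The main fit had no term for the pool, so the bins of 1 pool entered as separate libraries though they share animals. Its p-values measure the spread of libraries around the fit, from only 2 pools per group. The members and lists were chosen with earlier results of these data known. Named genes were the members, the 3 genes most like each, and at most 4 of each list per comparison, those past the threshold with the largest change or otherwise those with the highest level. The ATV-TfR slope of Spi1 was added after its value was seen. Promoter sequences are from RefSeq.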

Additional observations from a re-analysis of the deposited data

Results flagged for a closer look

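Cells outside every named class also carried the members. A cluster of 2882 cells, with a median of 1266 UMIs per cell and 5 of the 12 microglial markers detected, was led by Atp8a2, Dock2, Pde3b and Ikzf1. In it P2ry12 was at 1069 ± 108 CPM (SD, n = 5 pools), Cx3cr1 at 1253 ± 159, Csf1r at 1221 ± 110 and Siglech at 1051 ± 72.5, while Sall1, at 304 ± 38.7, was close to its level in microglia-like cells. The cluster made up 10.1% of the ATV-TfR negative library of pool 1 and 4.05% of that of pool 2, and 2.15% and 1.07% of the ATV-CD98hc negative libraries. It entered no comparison.

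A cluster of 157 cells came wholly from control IgG pool 2 and made up 14.3% of its high library. It was led by Cd52, Cd72 and Adgre1. Cx3cr1 was at 923 CPM, Csf1r at 317 and Tmem119 at 204, while P2ry12 was at 26.7 CPM and Siglech at 0 UMIs. With 1 pool these levels have no replicate check.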

How the results depend on the processing

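Of 335 recounts of members called under an alternative, 270 stayed within 1.5 times the reported count. These include counts of 0 that stayed 0. The share of all genes called under each alternative is not given beside these recounts. Some alternatives left the libraries of a comparison unchanged, so those recounts could not move. In microglia-like cells the ATV-TfR count of 1 was 2 without the filter on low counts and 0 by DESeq2. The ATV-CD98hc count of 4 was 2 with at least 50 cells per library, 1 without cells holding markers of another type, 2 without cells holding the astrocyte or endothelial list and 0 for low against negative, where P2ry13 (0.020) and Gpr34 (0.011) turned sign; the replicate block gave 5. Without the filter, the difference between these trends and the ATV-TfR against control IgG contrast each gave 1 in place of 0. The control IgG count of 1 was 0 with RLE factors, 6 without the filter, 3 by DESeq2 and 2 without the astrocyte or endothelial list. In border macrophage-like cells counts of 0 became 1 for ATV-TfR low against negative, and without the filter for the control IgG trend and the ATV-CD98hc high against low contrast. The astrocyte-like ATV-CD98hc count of 0 was 3 by DESeq2 and 6 for low against negative, and the endothelial-like count of 7 was 0 for low or high against negative. The oligodendrocyte-like ATV-TfR count of 1 was 2 with RLE factors, 6 without the filter, 2 by DESeq2 and 4 for low against negative, and the ATV-CD98hc count of 0 was 5, 1 by DESeq2 and 6. The pericyte-like counts of 7 and 1 were both 0 in cells without markers of another type, where Il34 was the 1 member tested, and for low against negative, the second was 4 without the filter and by DESeq2, and in the ATV-TfR group Il34 turned to 0.015 in the first of these and Csf1 to −0.46 in the second. The fibroblast-like ATV-CD98hc count of 3 was 0 for low against negative. The causes were not tested.

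Leaving out 1 pool in turn gave counts of 0 to 1 (ATV-TfR), 0 to 5 (ATV-CD98hc) and 0 to 4 (control IgG) in microglia-like cells, 0 for their trend difference, and 0 to 1 for ATV-TfR against control IgG in the negative bin. It gave 1 to 7 and 0 in astrocyte-like, 0 to 1 and 4 to 7 in endothelial-like, 0 to 4 and 0 to 1 in oligodendrocyte-like, 1 to 6 and 1 in pericyte-like and 0 to 4 and 0 to 4 in fibroblast-like cells, and 0 to 1 for the border macrophage-like high against low contrasts of ATV-CD98hc and control IgG. No member of the microglia-like counts was called without either ATV pool concerned. The finding that 8 members were highest in microglia-like cells held in every alternative run. Bins with fewer than 60 microglia-like cells limit the precision.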

Other observations

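Microglia-like cells formed 2 clusters, and in the smaller one, of 99 cells with a median of 1765 UMIs, P2ry12 was at 969 CPM and Cx3cr1 at 1039 CPM. Smooth muscle-like cells held Il34 at 108 to 165 CPM in the 9 libraries with enough of them. The activated microglia gene Fabp5, a fatty acid carrier, was the 1 gene of its list that differed in slope between ATV-TfR and ATV-CD98hc in microglia-like cells, by 1.15 on the log2 scale (adjusted p = 0.0436, edgeR). Of all genes tested, 1.43% differed in this contrast.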
